A study of Mus musculus with 2 samples.

Results

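The nuclei described here are those that the deposited annotation of the mouse brainstem calls neuron.1, its largest neuronal cluster, and that carry the label of subcluster 1 at clustering resolution 0.8. They numbered 2225 of the 18281 deposited nuclei, of the 11511 nuclei in neuronal clusters and of the 9111 nuclei in neuron.1. Of the 2225, 1714 came from the wild-type (WT) library and 511 from the library of the Scn1a knock-in heterozygote (HET), which makes 77.0% (75.2 to 78.8) of them WT, against 55.2% (54.2 to 56.3) of all neuron.1 nuclei. Brackets after a share or a level hold the 95% interval, which covers counting error only.

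HETs carried the Scn1a A1783V missense allele over an intact allele (Scn1aA1783V/WT) and came from a floxed Scn1a sire mated to a Sox2-Cre dam, so that the allele was recombined early and across the embryo. WTs with intact Scn1a were littermates, and both genotypes were on the C57Bl6 background and received no treatment. Each library held nuclei of the brainstem of 1 female mouse at postnatal day 41, and a seizure before collection was not required. With 1 library per genotype there is no replicate check of any difference between genotypes: genotype, animal and library preparation cannot be told apart.

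Scn1a encodes NaV1.1, a sodium channel that carries much of the somatic and axonal current of fast-firing neurons, many of them inhibitory, and its loss of function underlies most cases of Dravet syndrome. Inhibitory neurons of the pons and medulla release glycine, taken up by the transporter GlyT2 (Slc6a5), GABA, made by the decarboxylases of Gad1 and Gad2, or both, and fill vesicles with either through the same transporter, Slc32a1. Excitatory neurons there mostly use the glutamate transporter of Slc17a6. Fast-firing neurons often carry Kv1 and Kv3 potassium channels, neurofilament and a perineuronal net of aggrecan (Acan) and link proteins (Hapln1).

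The members held 16515057 unique molecular identifiers (UMIs, counted RNA molecules) in WT and 6912346 in HET nuclei, of 70301390 and 66176778 in the whole libraries. Levels are given as UMIs of a gene per 1000000 UMIs of the group of nuclei (CPM), and ratios as log2 of the CPM ratio. Scn1a, the targeted gene (minus strand of chr2:66270778-66440840, GENCODE vM21 on mm10), stood at 464 (453 to 474) CPM in WT and 579 (562 to 598) CPM in HET nuclei, a HET over WT ratio of 0.32 (0.27 to 0.38), and at 420 and 469 CPM in the other neuron.1 nuclei (WT first, as in every pair below). The counts do not separate the alleles, so this level does not check the genotype labels. The libraries shared 23 barcodes over all nuclei, and no barcode of a WT member was found among the HET members.

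The members were neuronal by their markers. Rbfox3, the nuclear protein NeuN, was at 204 CPM in WT and 231 CPM in HET nuclei, against 39.7 and 75.5 CPM in the non-neuronal nuclei. Snap25, a protein of vesicle fusion, was at 612 and 810 CPM, against 153 and 197 CPM. A UMI of Snap25 was seen in 91.1% of WT and 96.3% of HET members. With each nucleus thinned to 1000 UMIs the shares were 41.4% and 49.4%, against 13.1% and 15.4% in non-neuronal nuclei, a guide to free RNA. A second deposited label, made by comparison with a reference, called all 2225 members neurons.

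The 2225 nuclei were not uniform. Whether their division below reflects types of cell was not tested. The deposited labels at the next resolution, 0.9, divided nearly all of them between a cluster with 1220 members, called here the shallow set for its lower UMI counts, and a cluster with 936, called the deep set. The remaining 69 were spread over other clusters. This division was taken up after the values had been seen. The shallow set held 1064 WT and 156 HET nuclei, 87.2% (85.2 to 89.0) WT, and the deep set 598 and 338, 63.9% (60.7 to 67.0) WT. The shallow set thus made up 21.1% (20.02 to 22.3) of WT and 3.82% (3.26 to 4.46) of HET neuron.1 nuclei, and the deep set 11.9% (11.0 to 12.8) and 8.29% (7.46 to 9.17). Between the libraries the share of the shallow set differed 5.53-fold and that of the deep set 1.43-fold. The genes that tell the shallow set from other nuclei also differ between the libraries (below), so these sizes describe the clustering and are not read as numbers of cells.

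**Figure D1:**
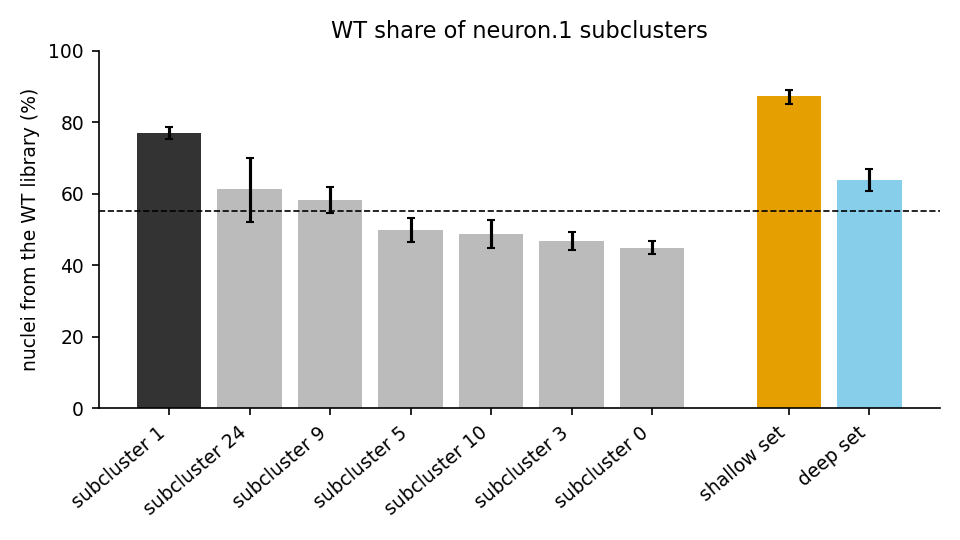
Bars give the percent of nuclei from the WT library in subcluster 1 (black), in the other neuron.1 subclusters with over 100 nuclei (grey) and in both sets within subcluster 1 (colours). Error bars are 95% exact binomial intervals, and the dashed line is all of neuron.1. The other subclusters ran from 45.0% to 61.3%, and the shallow set was the tallest bar at 87.2%.

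The WT library had the larger share under every denominator: 34.1% (32.8 to 35.4) of WT and 12.5% (11.5 to 13.6) of HET neuron.1 nuclei, 28.0% and 9.48% of neuronal nuclei, and 18.5% and 5.66% of all nuclei. At the coarser resolution 0.6 the division was already there: 1247 members, 1080 WT and 167 HET, fell in a cluster of 4219 nuclei shared with other neurons, and 938, 599 WT and 339 HET, in a cluster of 1105. At 0.7, as at 0.8, both sets were joined. In the deposited clustering made without SCTransform, the members fell mainly in 5 clusters with 706, 569, 458, 240 and 207 of them. The cluster with 569, whose members had a median of 19341 UMIs, was 58.9% WT among the members. That with 458, median 3266.5 UMIs, was 90.6% WT.

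Depth separated the sets. The median member had 6757.5 UMIs in WT and 11265 in HET nuclei, but within the shallow set the medians were 4901.5 and 5032, and within the deep set 14051 and 15115.5. The other neuron.1 nuclei had medians of 8115.5 and 8347.5. The deep set held 61.2% of the UMIs of WT members and 85.5% of those of HET members. A sum over all members is therefore weighted towards the deep set in both libraries, and more so in the HET library. The median percent of ribosomal protein UMIs was 0.769 and 0.470 in the shallow and 0.397 and 0.247 in the deep set, against 0.565 and 0.339 in the other neuron.1 nuclei. The mitochondrial percent was likewise higher in the shallow set, at 0.335 and 0.493 in the shallow and 0.140 and 0.159 in the deep set. Median doublet scores were 0.117 and 0.0432 in the shallow set, 0.226 and 0.216 in the deep set and 0.185 and 0.109 in the others.

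The WT share was above the HET share at every depth. When all neuron.1 nuclei were divided into quintiles of UMIs, subcluster 1 held 46.4% of WT and 17.1% of HET nuclei in the lowest quintile (1369 to 5154 UMIs), 32.6% and 7.33% in the next, 24.2% and 6.06% in the middle, 26.5% and 8.78% in the one after it and 35.4% and 26.8% in the highest. The shallow set went from 44.8% to 2.26% of WT nuclei over these quintiles and from 15.4% to 0.372% of HET nuclei. The deep set went the other way, from 1.09% to 31.9% and from 1.10% to 26.3%. The share was higher in the WT library in every quintile for the shallow set and, for the deep set, in every quintile but the lowest, where it was 1.09% and 1.10%.

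**Figure D2:**
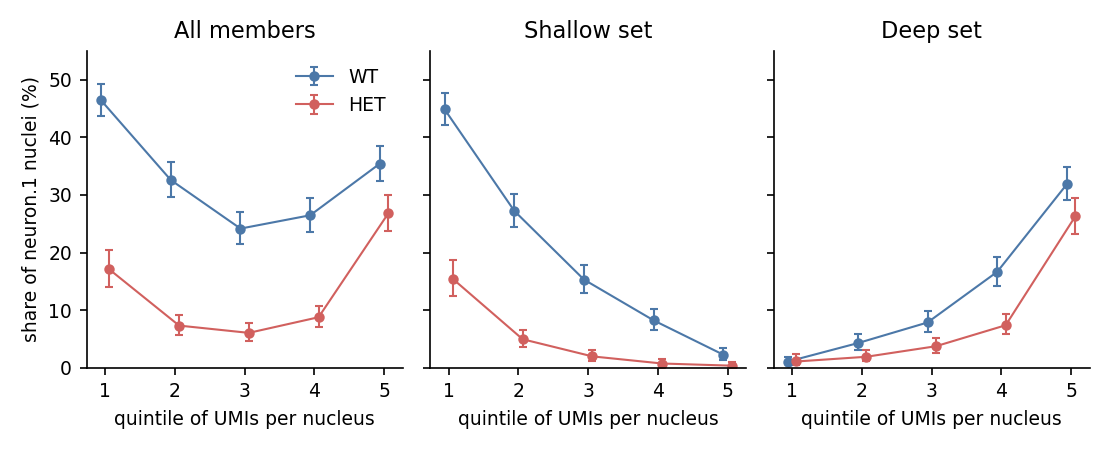
Percent of the neuron.1 nuclei of each library that belonged to subcluster 1 (left), the shallow set (middle) and the deep set (right), by quintile of UMIs per nucleus from lowest (1) to highest (5). Bars are 95% exact binomial intervals. WT and HET shares lie far apart at low depth (46.4% and 17.1% for all members) and near each other at high depth (35.4% and 26.8%).

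The libraries also differed in how many nuclei were shallow. The lowest quintile of UMIs held 25.4% of WT and 13.4% of HET neuron.1 nuclei. Of these shallowest nuclei, 46.4% in the WT library lay in subcluster 1 and 23.5% in subcluster 0. In the HET library 17.1% lay in subcluster 1 and 37.2% in subcluster 0. Subcluster 1 was thus the commonest label of shallow WT nuclei, and subcluster 0 that of shallow HET nuclei. With both libraries weighted to the same mix of UMI quintiles, the members' shares were 33.0% and 13.2%, a ratio of 2.50 in place of 2.72.

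Ribosomal protein RNA moved with the libraries too. The highest quintile of percent ribosomal UMIs held 34.0% of WT and 2.70% of HET neuron.1 nuclei, 110 nuclei in the latter. Weighted to the same mix of ribosomal quintiles, the ratio was 2.51 for all members. For the shallow set alone it was 1.63 in place of 5.53, and for the deep set 4.14 in place of 1.43. Weighting by ribosomal percent thus moved the excess from the shallow to the deep set and left its total near the same. The part of depth and of ribosomal RNA in the WT excess was not tested.

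The members were also compared with their nearest neighbours in expression space. Among the 15 nearest neuron.1 nuclei of a WT member, 91.3% were WT, and among those of a HET member 26.4%. After each library's mean was subtracted gene by gene, which by construction makes the mean of every gene equal in both libraries, these became 62.9% and 56.2%. In this centred space 60.1% of the neighbours of WT members and 71.7% of those of HET members were members. For a WT nucleus of the shallow set, 42.0% of its nearest HET nuclei lay in subcluster 0, which holds 38.6% of HET neuron.1 nuclei, and 22.3% in subcluster 1, which holds 12.5%. For a WT nucleus of the deep set, 55.9% lay in subcluster 1. For a HET member, 82.5% of the nearest WT nuclei lay in subcluster 1, which holds 34.1% of WT neuron.1 nuclei. Clusters rebuilt on the centred data spread the members widely: the one with most of them had 1841 nuclei, held 35.0% of the members and was 58.6% WT. The one with most of the shallow set had 1009 nuclei and was 52.8% WT. Without centring, the rebuilt cluster with most members held 28.9% of them and was 89.8% WT. The one with most of the shallow set was 85.4% WT, but the one with most of the deep set was 29.7% WT. Centring would also remove a real difference between genotypes, so these values do not say which clustering is right.

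Against the other neuronal nuclei, 307 of 15350 genes with at least 200 UMIs (2.00%) were at least 1.5-fold higher in the members in both libraries, and 651 (4.24%) at least 1.5-fold lower. Such genes are called higher or lower below, from the fold alone and with no test. Against the other neuron.1 nuclei alone, the counts were 351 of 14637 (2.40%) and 555 (3.79%). The labels come from the same counts, so these genes describe how the cluster was drawn. The genes highest against other neurons were Klk12, Pdpn, Slco6c1, Col5a2, Mecomos, Tarm1, Plscr5, Tex22, Rubcnl and Mecom, most of them at low levels. Col5a2, a fibrillar collagen chain, was at 18.1 and 42.0 CPM in the members and 9.77 and 5.28 CPM in the other neuronal nuclei. Mecom, a zinc finger transcription factor, was at 69.5 and 119 CPM and 33.8 and 24.5 CPM. Nearly all of this belonged to the deep set: Col5a2 was at 27.3 and 48.2 CPM there and 3.76 and 4.62 CPM in the shallow set, and Mecom at 97.8 and 139 CPM and 26.5 and 2.31 CPM. With the shallow set alone in place of all members, 6 of the 10 were lower than in other neurons.

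Several of the lowest genes mark other types of neuron. Tph2 and Slc6a4, the synthetic enzyme and the transporter of serotonin, were at 0.484 and 0.145 CPM and at 0.484 and 0.145 CPM, against 11.0 and 17.0 CPM and 9.70 and 5.95 CPM in other neurons. Slc17a7, the glutamate transporter of cerebellar granule and cortical neurons, was at 1.03 and 2.03 CPM, against 9.28 and 23.2 CPM. Gzmk, Gadl1, Slc22a3, Htr5b, Maob, Gmnc and Ppfibp1 completed the 10. Of 6 granule cell markers with at least 200 UMIs 5, and of 3 cholinergic markers 2, were called lower, beside 4.24% of all genes. The medians of these lists, by the mean of the libraries' ratios, were −1.52 and −1.34, against 0.01 over all genes. Granule cell markers summed to 25.9 and 42.8 CPM in the shallow and 11.0 and 11.2 CPM in the deep set. The other neuron.1 nuclei had 25.7 and 25.4 CPM. For cholinergic markers the sums were 16.9 and 32.4, 5.54 and 3.05, and 20.1 and 21.9 CPM in the same order. Against the other neuron.1 nuclei, only the deep set was thus low in both libraries by a wide margin.

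Against the other neuron.1 nuclei the leading gene was Pkp1 (chr1:135871395-135919207), a plakophilin of desmosomes, at 12.1 (10.5 to 13.9) CPM in WT and 18.1 (15.1 to 21.5) CPM in HET nuclei, against 1.57 and 1.48 CPM. It was followed by Sapcd1, Vwa7, Col5a2, Klk12, Rubcnl, Ccdc122, Lacc1, Gem and Lrrc63. A UMI of Pkp1 was seen in only 28 of 1714 WT and 11 of 511 HET members (1.63% and 2.15%). The other neuron.1 nuclei were at 1.36% and 1.12%, so the higher level of Pkp1 came from few nuclei. In the WT library Pkp1 was at 13.8 CPM in the shallow and 11.7 in the deep set, from 10 of 1064 and 17 of 598 nuclei. In the HET library it was at 20.8 CPM in the deep set and 2.31 (0.280 to 8.35) CPM, from 2 UMIs, in the shallow set. Sapcd1 was at 36.4 and 22.7 CPM in the deep set, 3.07 and 2.31 CPM in the shallow set and 4.59 and 3.62 CPM in the others. The lowest were Zbbx, Ppfibp1, Cdh3, Syt10, Gabrq, Dclk3, Hoga1, Catsperg1, Ryr1 and Ctxn1. Syt10, a synaptotagmin, was at 2.42 and 1.30 CPM in the members and 13.7 and 11.9 CPM in the others, and Gabrq, the theta subunit of GABA-A receptors, at 1.21 and 0.434 CPM and 4.50 and 5.33 CPM.

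Within subcluster 1, 477 of 10822 genes (4.41%) were at least 1.5-fold higher in the deep than in the shallow set in both libraries, and 1218 (11.3%) at least 1.5-fold lower. The genes furthest on the shallow side were Baiap3, Rgs9, Fnbp1l, Fxyd6, Rab34, Erich2, Gad1os, Bex1, Cgref1 and Zcchc12. Baiap3 (chr17:25242659-25256364), which acts in dense-core vesicle traffic, was at 54.1 (48.3 to 60.4) CPM in WT and 53.2 (38.9 to 70.9) CPM in HET nuclei in the shallow set and at 2.67 (1.76 to 3.89) CPM in WT and 1.69 (0.811 to 3.11) CPM in HET nuclei in the deep set. The other neuron.1 nuclei were at 64.0 and 56.0 CPM and the non-neuronal nuclei at 6.44 and 6.66 CPM, so the deep set was the one that stood apart and lay below the level in non-neuronal nuclei. Thinned to 1000 UMIs, a Baiap3 UMI was seen in 6.41% and 5.79% of shallow nuclei and in 0.335% and 0.187% of deep nuclei, against 0.566% and 0.760% of non-neuronal nuclei. Unthinned, the shares were 19.9% and 21.2%, 2.68% and 2.96%, and 1.62% and 2.18%. Celf4, an RNA-binding protein of neurons, showed the same order at high counts, with 557 and 913 CPM in the shallow set, 176 and 170.2 CPM in the deep set and 527 and 578 CPM in the others.

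The genes furthest on the deep side were Mecom, Lrrc63, Sapcd1, P2rx6, Vwa7, Col5a2, Cdc14a, Cpt1a, Mas1 and Lcp1. P2rx6, a subunit of ATP-gated channels, was at 41.5 and 33.2 CPM in the deep set, 5.63 and 2.31 CPM in the shallow set and 8.34 and 7.91 CPM in the other neuron.1 nuclei. Cpt1a, which brings fatty acids into mitochondria, was at 15.9 and 15.9 CPM, 3.24 and 1.16 CPM and 4.09 and 3.91 CPM. In these 10 genes the shallow set lay below the other neuron.1 nuclei in both libraries, except for Vwa7 in the WT library (1.71 and 1.54 CPM) and Col5a2 in the HET library (4.62 and 4.39 CPM). In the HET shallow set 3 counts would be 3.47 CPM, so the values of P2rx6 and Cpt1a there rest on fewer UMIs. For genes this low the order in the HET library is uncertain.

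**Figure D3:**
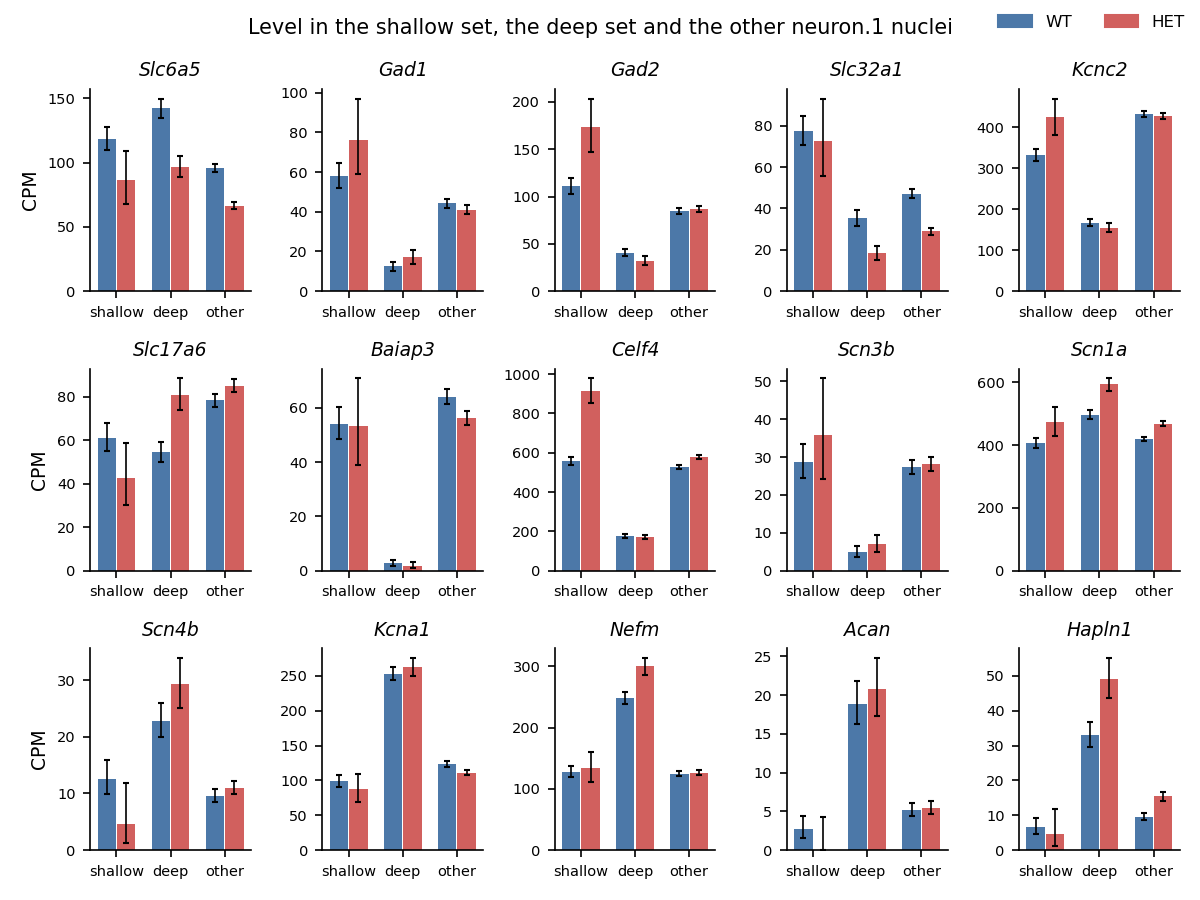
CPM of 15 genes in the shallow set, the deep set and the other neuron.1 nuclei, in the WT (blue) and HET (red) library, each panel from 0. Bars carry 95% exact Poisson intervals. Gad1, Gad2, Kcnc2, Baiap3, Celf4 and Scn3b were lowest in the deep set, and Kcna1, Nefm, Acan and Hapln1 were highest there. The genes were picked after their values were seen.

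Genes of GABA release differed between the sets, while the glycine transporter gene was not called against the other neuron.1 nuclei or between the sets. Slc6a5 (chr7:49910146-49963856) was at 135 (129 to 140.4) CPM in WT and 96.2 (89.0 to 104) CPM in HET nuclei over all members, at 119 and 86.7 CPM in the shallow and 142 and 96.9 CPM in the deep set, and at 95.8 and 66.5 CPM in the other neuron.1 nuclei, within 1.5-fold over all members. Non-neuronal nuclei had 19.6 and 16.3 CPM. At 1000 UMIs, 10.9% of WT and 8.20% of HET members had a Slc6a5 UMI (45.3% and 43.6% unthinned), against 2.16% and 1.88% of non-neuronal nuclei (6.11% and 5.62%). Gad1 was at 57.9 and 76.3 CPM in the shallow set, 44.3 and 41.0 CPM in the other neuron.1 nuclei, 12.5 and 17.1 CPM in the deep set and 10.5 and 8.52 CPM in the non-neuronal nuclei. Gad2 was at 111 and 173 CPM, 84.7 and 87.1 CPM and 40.6 and 32.1 CPM in the first 3 of these groups. Thinned to 1000 UMIs, a Gad1 UMI was seen in 1.37% and 2.20% of deep and 1.34% and 0.844% of non-neuronal nuclei (14.0% and 18.3%, and 3.41% and 2.81%, unthinned), so in the WT library the deep set was at this background.

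The vesicular transporter gene Slc32a1 stood at 77.5 and 72.8 CPM in the shallow set, at 35.2 and 18.3 CPM in the deep set and at 47.2 and 28.9 CPM in the others. Of the 5 GABAergic and glycinergic markers 4 were called lower in the deep than in the shallow set, Slc6a5 being the exception at 0.26 in WT and 0.16 in HET nuclei. Slc17a6 was at 61.1 and 42.8 CPM in the shallow set, 54.7 and 81.0 CPM in the deep set and 78.4 and 85.2 CPM in the others. With 48.7 and 52.2 CPM in the non-neuronal nuclei, the level in the HET shallow set lay below this background, and that in the WT deep set little above it.

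Neurofilament and perineuronal net genes set the deep set apart. Of 10, 5 were called higher in the members than in the other neuron.1 nuclei and 0 lower, beside 2.40% and 3.79% of all genes, with a median of 0.69, against −0.01 over all genes. Acan (chr7:79053483-79115099) was at 18.9 (16.3 to 21.8) CPM in WT and 20.8 (17.3 to 24.8) CPM in HET nuclei in the deep set and at 5.22 and 5.45 CPM in the other neuron.1 nuclei. In the shallow set it was at 2.73 (1.56 to 4.44) CPM in the WT library and at 0 in the HET library, where 3 counts would be 3.47 CPM. Hapln1 was at 32.9 and 49.2 CPM in the deep, 6.66 and 4.62 CPM in the shallow set and 9.57 and 15.4 CPM in the others. Nefm, the medium neurofilament chain, was at 248 and 299.8 CPM, 128 and 134 CPM and 124 and 126 CPM. The shallow set was near the other neuron.1 nuclei in Nefm and below them in Acan and Hapln1. Ncan, neurocan, was the list's exception, at 11.0 and 8.54 CPM in the members and 10.7 and 10.4 CPM in the others.

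Of 10 sodium channel genes, 2 were called higher and 3 lower in the members than in the other neuron.1 nuclei, beside 2.40% and 3.79% of all genes. Scn4b, the auxiliary subunit linked to resurgent current, was at 19.3 and 26.2 CPM, against 9.60 and 11.0 CPM, with 22.8 and 29.3 CPM in the deep and 12.6 and 4.62 CPM in the shallow set. Scn9a (NaV1.7) was at 698 and 1012 CPM, against 444 and 615 CPM, with 790.3 and 1049 CPM and 545 and 752 CPM in the sets. Scn3b, another auxiliary subunit, was at 14.0 and 11.0 CPM, against 27.4 and 28.1 CPM, with 4.95 and 6.94 CPM in the deep set. Scn8a (NaV1.6) was at 373 and 360.4 CPM in the deep, 242 and 245 CPM in the shallow set and 259.9 and 259 CPM in the others. Scn1a itself was at 497 and 593 CPM, 406 and 473 CPM and 420 and 469 CPM, within 1.5-fold throughout. Among Kv1 and Kv3 genes, Kcna1 (Kv1.1) was at 253 and 263 CPM in the deep, 99.0 and 87.8 CPM in the shallow set and 124 and 111 CPM in the others. Kcnc2 (Kv3.2) ran the other way at 167 and 155 CPM, 333 and 424 CPM and 432 and 427 CPM. Of 9 such genes with at least 200 UMIs in the members, 4 were called higher and 2 lower in the deep than in the shallow set, beside 4.41% and 11.3% of all genes.

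Of 31 other potassium channel genes, 7 were called lower than in the other neuron.1 nuclei and 0 higher, beside 3.79% and 2.40% of all genes. Their sum was 8127 and 9890.2 CPM in the shallow set, 7807 and 8724 CPM in the deep set and 11408 and 11846 CPM in the others, so both sets lay below. Kcnh8, an Elk-type channel, was lowest, at 23.6 and 8.09 CPM in the shallow and 17.1 and 16.4 CPM in the deep set, against 58.0 and 51.9 CPM. Of 16 genes of GABA-A and glycine receptors with at least 200 UMIs, 7 were called lower and none higher, with a median over the list of −0.47. Glra3 was at 40.8 and 36.2 CPM, against 86.6 and 94.9 CPM, while Glra1, the adult glycine receptor subunit, was at 265 and 241 CPM, against 222 and 172 CPM. Of 32 vesicle fusion genes 1 was called higher and 1 lower. The former was Syt2, the fast calcium sensor of many hindbrain synapses, at 231 and 311 CPM, against 147 and 168 CPM, and the latter Unc13b, a vesicle priming factor, at 35.5 and 30.8 CPM, against 66.4 and 61.2 CPM. The vesicle glycoprotein gene Sv2c was at 234 and 329 CPM in the deep and 105 and 68.2 CPM in the shallow set, the highest ratio of deep over shallow set in this list.

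Genes that mark peptide content and position were lower mainly in the deep set. Of 19 neuropeptide precursors with at least 200 UMIs, 6 were called lower in the members than in the other neuron.1 nuclei and 0 higher, beside 3.79% and 2.40% of all genes, with a median over the list of 24 of −0.77. Their sum was 703 and 679 CPM in the deep set, 911 and 1247 CPM in the shallow set, above the others in the HET library, and 1056 and 1002 CPM in the others. Sst, somatostatin, was at 65.9 and 48.5 CPM in the shallow and 19.5 and 10.5 CPM in the deep set, against 49.8 and 38.0 CPM. Calca, the precursor of calcitonin gene-related peptide, was at 14.5 (11.6 to 17.9) CPM in WT and 72.8 (56.0 to 93.2) CPM in HET nuclei in the shallow set, from 85 UMIs in 48 nuclei and 63 UMIs in 14 nuclei, against 4.72 and 4.56 CPM in the others. Of 26 hindbrain transcription factors with at least 200 UMIs, 2 were called higher and 9 lower. The 2 were Lhx4, a LIM homeodomain factor, at 4.60 and 4.05 CPM, against 2.77 and 1.78 CPM, and Nfia, a nuclear factor I gene, at 191 and 275 CPM, against 125 and 145 CPM. Ebf2, expressed in glutamatergic hindbrain lineages, was at 11.9 and 17.8 CPM, against 39.4 and 54.2 CPM. Pax2, a factor of inhibitory lineages in hindbrain and spinal cord, was level, at 51.1 and 44.3 CPM and 51.1 and 42.7 CPM. Of 13 Hox genes with as many UMIs 5 were called lower, and the summed Hox level was 115 and 70.7 CPM in the deep set, 204 and 136 CPM in the shallow set and 215 and 114 CPM in the others.

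Oligodendrocyte RNA was more abundant in the shallow than in the deep set. The 10 oligodendrocyte markers summed to 899 and 1046 CPM in the shallow set, 387 and 451 CPM in the deep set, 615 and 702 CPM in the other neuron.1 nuclei and 8031 and 10046 CPM in the non-neuronal nuclei. Of the 9 with at least 200 UMIs in the members, 7 were called lower in the deep set and 1, Ugt8a, higher. None of the 10 was at 0 in the members. Ttr, transthyretin of the choroid plexus, was at 362 and 27.7 CPM and 135 and 17.6 CPM, against 1241 and 98.6 CPM in non-neuronal nuclei, much lower in the HET library throughout. The 10 astrocyte markers summed to 133 and 151 CPM in the shallow, 104 and 121 CPM in the deep set and 133 and 142 CPM in the others. Microglia markers summed to 249 and 212 CPM in the shallow and 207 and 241 CPM in the deep set, with opposite orders in the libraries. Ependymal and choroid plexus markers summed to 390.4 and 53.2 CPM and 178 and 52.8 CPM, level in the HET library. The part of such RNA in the division of the sets was not tested.

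Ribosomal protein genes and nuclear genes of the respiratory chain divided the sets as well. Of 80 ribosomal protein genes with at least 200 UMIs in the members, 74 were called lower in the deep than in the shallow set, with a median of −1.22, and of 77 respiratory chain genes 45, with a median of −0.72, against −0.13 over all genes. The ribosomal sum was 6952 and 4228 CPM in the shallow, 3141 and 1782.8 CPM in the deep set and 4683 and 2730.2 CPM in the other neuron.1 nuclei. The respiratory sum was 5922 and 3905 CPM, 3786 and 2602 CPM and 4310.3 and 2932 CPM. Glycolysis genes differed less, at 1170.1 and 974 CPM in the shallow and 869 and 783 CPM in the deep set.

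These genes are short, and the shallow set was richer in short genes at large. For genes under 10 kb (the length of the whole gene body in the annotation), the median ratio of the shallow set over the other neuron.1 nuclei was 0.32 in WT and 0.26 in HET nuclei, and it declined to −0.27 and −0.22 for genes over 300 kb. The deep set had no such slope, with −0.13 and −0.17 for the shortest and −0.11 and −0.12 for the longest. The HET over WT ratio was higher the longer the genes in the members, in both sets and in the other neuron.1 nuclei: in the members it went from −0.55 under 10 kb to 0.18 over 300 kb, and in the other neuron.1 nuclei from −0.40 to 0.14. The WT library and the shallow set were thus both shifted towards short genes. The part of gene length in the WT excess was not tested.

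**Figure D4:**
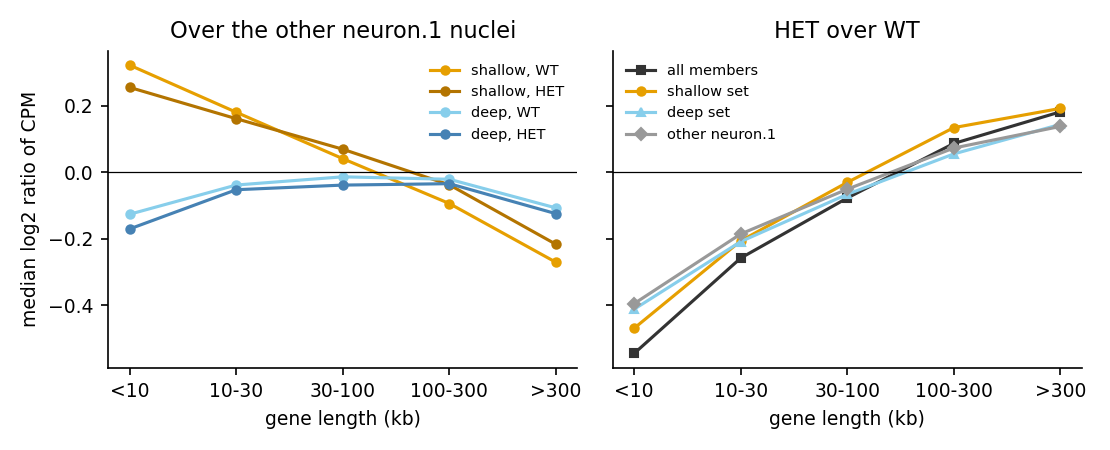
Median log2 ratio of CPM by gene length, from genes under 10 kb to genes over 300 kb. Left, the shallow and the deep set over the other neuron.1 nuclei in each library; right, HET over WT in the members, both sets and the other neuron.1 nuclei. The shallow set declines from 0.32 and 0.26 to −0.27 and −0.22, and all HET over WT lines climb, the members' from −0.55 to 0.18.

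Within subcluster 1, 331 of 10822 genes (3.06%) were at least 1.5-fold higher and 1707 (15.8%) at least 1.5-fold lower in the HET than in the WT library. The median gene was at −0.13. With this median set to 0, the counts were 543 higher and 1187 lower, so the direction of small ratios depends on the scaling. The other neuron.1 nuclei held 325 higher and 951 lower among the same genes, with a median of −0.08.

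The genes highest in the HET library were Pdzk1, Grip1os1, Chmp4c, Gpr171, Alas2, H2-T24, Polq, Dock2, Angptl7 and Poln. Alas2, an enzyme of haem synthesis, was at 28.3 and 71.2 CPM in the members and 24.0 and 59.4 CPM in the other neuron.1 nuclei, and Pdzk1, a scaffold protein, at 9.45 and 31.7 CPM and 8.81 and 27.9 CPM. The lowest were Ttr, Loxl1, Mettl18, Tex22, Bc1, Junb, Bex1, Rab34, Shoc1 and Cdhr1. Bc1, a short noncoding RNA of dendrites, was at 2175 and 421 CPM in the members and 1979 and 482 CPM in the others. Junb, an immediate early gene, was at 24.1 and 5.64 CPM and 20.6 and 5.19 CPM. All of these had the same direction in the other neuron.1 nuclei, and values of the same libraries are not independent of each other.

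Some of the lowest genes changed with the mixture of sets. Rab34 and Bex1 were higher in the shallow set, which made up 62.1% of WT but 30.5% of HET members. Bex1 was at 28.7 and 7.09 CPM over all members, 62.8 and 24.3 CPM in the shallow and 8.41 and 4.57 CPM in the deep set, so its ratio of −2.02 over all members was −1.37 and −0.88 within the sets. Gad1 ran lower in the HET library over all members, at −0.27, but was 0.40 (0.00 to 0.78) in the shallow and 0.46 (0.06 to 0.84) in the deep set. Gad2 was at −0.39 over all members, 0.65 (0.38 to 0.90) in the shallow set and −0.34 (−0.59 to −0.09) in the deep set. The pooled ratios of these genes hold the change in mixture as well as any change within a set.

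Ribosomal protein genes were lower in the HET members: 75 of 80 were called lower, the median was −1.11, and the summed ratio was −1.10 (−1.13 to −1.08). Within the sets the summed ratio was −0.72 (−0.77 to −0.67) and −0.82 (−0.85 to −0.79), and in the other neuron.1 nuclei −0.78 (−0.79 to −0.77). For the nuclear respiratory chain genes, 56 of 77 called lower, the values were −0.72 (−0.74 to −0.69) over all members, −0.60 (−0.65 to −0.55) and −0.54 (−0.57 to −0.51) within the sets and −0.56 (−0.57 to −0.54) in the others. With both sets given the same weight in both libraries, the ratios were −0.75 and −0.58. The pooled decrease of the members was thus larger than in either set, and the ratios within the sets lay on either side of that of the other neuron.1 nuclei. The sum of the oligodendrocyte markers differed in sign: −0.10 (−0.16 to −0.05) over all members, 0.22 (0.12 to 0.32) in the shallow, 0.22 (0.15 to 0.29) in the deep set and 0.19 (0.16 to 0.22) in the others.

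Immediate early genes, which neuronal activity induces within minutes, were lower in the HET members, 4 of 5 with at least 200 UMIs being called beside 15.8% of all genes, with a summed ratio of −0.64 (−0.75 to −0.53) over all members and −0.55 (−0.61 to −0.50) in the other neuron.1 nuclei. Fos was at 7.75 and 2.89 CPM and Egr1 at 9.26 and 3.76 CPM. All genes under 10 kb had a median ratio of −0.55 in the members and −0.40 in the other neuron.1 nuclei. The part of gene length in the ratio of the immediate early genes was not tested. Of 6 Hox genes 4 were called lower, and the summed ratio was −0.92 (−1.05 to −0.78) over all members, −0.58 (−0.87 to −0.31) in the shallow set, −0.70 (−0.86 to −0.53) in the deep set and −0.92 (−0.97 to −0.86) in the others. Neurofilament and perineuronal net genes were at 0.25 (0.20 to 0.29) over all members, −0.04 (−0.17 to 0.09) in the shallow, 0.16 (0.11 to 0.20) in the deep set and 0.04 (0.01 to 0.07) in the others. None of 9 sodium channel genes was called in either direction. Scn1a, at 0.32 over all members, was at 0.22 and 0.26 within the sets, where genes of its length class (100 to 300 kb) had medians of 0.13 and 0.06.

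**Figure D5:**
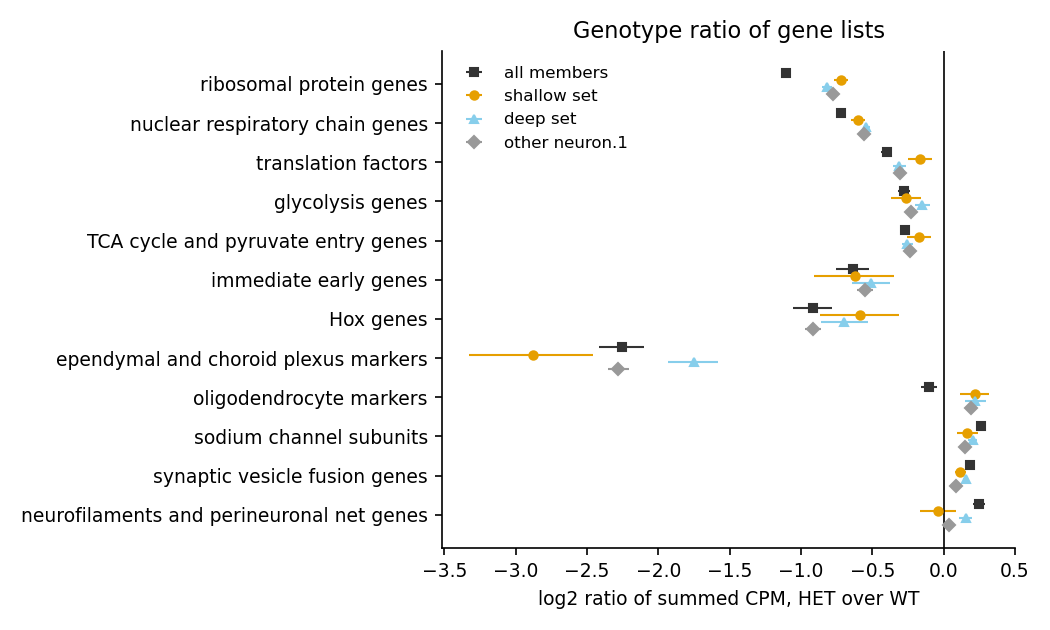
Log2 ratio of summed CPM, HET over WT, of 12 gene lists in all members (black squares), the shallow set (orange), the deep set (blue) and the other neuron.1 nuclei (grey). Bars are 95% exact intervals for counting error. For ribosomal protein genes all members lie at −1.10, left of both sets, and oligodendrocyte markers lie left of 0 only for all members.

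Over 15352 genes, the summed profile of the members was nearest to subcluster 5, with Spearman's rho of 0.986 in WT and 0.976 in HET nuclei, and next to subcluster 3, with 0.983 and 0.975. The deep set was nearest to subcluster 5, at 0.973 and 0.968. The shallow set was nearest to subclusters 0 and 3, at 0.983 and 0.983 in WT and 0.961 and 0.962 in HET nuclei. These correlations are across genes of pooled nuclei, share the depth of each pool and are given as a description. The shallow HET pool of 156 nuclei is the smallest, so its values carry the most counting error.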

How the data were processed

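The authors isolated nuclei from frozen brainstem, prepared 10x Genomics 3′ v3.1 libraries, aligned them with Cell Ranger (version not given in the sources used here) to mm10, and filtered, normalised and clustered nuclei with Seurat 4.1. The deposited matrix holds raw counts, that is UMIs per gene and nucleus. By their methods the authors left out mitochondrial, haemoglobin and other genes. Mitochondrial genes are not in the deposited counts, while some of the others named, such as Eno1, are. The deposited metadata give the percent of mitochondrial and ribosomal UMIs, a doublet score, cluster numbers at several resolutions and the library of each nucleus. Every deposited nucleus is listed as a singlet, so doublets were removed before deposit and no caller was run here.

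Members were the nuclei labelled neuron.1 and subcluster 1 at resolution 0.8. The members, gene lists and comparisons were chosen with earlier results of these data known, and the shallow and deep sets after seeing the data. With 1 library per genotype there was no test and no p-value. UMIs were summed per group of nuclei and library and scaled to CPM. Intervals are exact (95%, Poisson, binomial or Clopper-Pearson) and cover counting error only. A gene was called at 1.5-fold, for comparisons between groups of nuclei in both libraries, among genes with at least 200 UMIs in the nuclei compared (for sets and genotypes, in the members). List medians used genes with at least 20 UMIs. Genes named were the 10 highest and the 10 lowest per comparison, without gene models, plus Scn1a, Rbfox3, Snap25 and the highest and lowest 2 of a list. Other genes were chosen after their values were seen. For shares of nuclei with a UMI, each nucleus was thinned to 1000 UMIs without replacement. No nucleus was too shallow for this. Neighbours were 15 nearest nuclei on 30 principal components of 3000 variable genes, and clusters were rebuilt with leidenalg 0.10.2. Gene lengths came from GENCODE vM21, which matched 24908 of 25556 genes (97.5%). Python 3.11.15, numpy 2.4.6, scipy 1.17.1, pandas 2.3.3 and scikit-learn 1.9.0 were used, and the scripts were tested on simulated data.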

Additional observations from a re-analysis of the deposited data

Results flagged for a closer look

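Among genes with at least 200 UMIs in the members, Col5a2, a fibrillar collagen chain, was the 1 gene that differed by at least 1.5-fold between genotypes in opposite directions in the members and in the other neuron.1 nuclei, with both intervals apart from 0. In the members the log2 ratio was 1.21 (0.97 to 1.45), from 299 WT and 290 HET UMIs. In the other neuron.1 nuclei it was −0.83 (−1.13 to −0.53), from 248 and 148 UMIs. Within the subcluster the deep set held 276 and 285 of these UMIs, with a ratio of 0.82, and the shallow set 22 and 4. The deep set made up 34.9% of WT and 66.1% of HET members. The difference between the ratios was not tested, since each rests on the same 2 libraries.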

How the results depend on the processing

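The comparisons rest on 1 library per genotype, so no alternative bears on the spread between mice. No paired analysis was possible because the groups share fewer than 2 replicate numbers and no result comes from a test. Of 127 values for the main results under the alternatives, 79 moved little and 48 moved. Of 404 values for single named genes and list medians, 308 moved little, 89 moved and 7 changed sign. Depth limits the shallow HET set most, where 3 UMIs are 3.47 CPM.

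Counts of called genes depended on the minimum and the fold. Against other neurons, 307 higher and 651 lower became 523 and 1066 with a minimum of 50 UMIs, 192 and 433 with 500, and 58 and 248 at 2-fold. Between genotypes, 331 higher and 1707 lower became 810 and 2828, 174 and 933, and 88 and 422. With the median gene set to 0, 543 genes were higher, and with 1000 UMIs drawn from each nucleus 903 were higher and 2639 lower.

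Sums of lists moved with the weighting of nuclei. With the median set to 0, the HET over WT ratio was −0.97 for ribosomal protein genes (−1.10 as reported), −0.59 for respiratory chain genes (−0.72) and −0.51 for immediate early genes (−0.64). The mean of CPM over nuclei gave −1.16 and −0.80 for the ribosomal and respiratory lists, and 1000 UMIs per nucleus gave −1.21, −0.85 and, for immediate early genes, −0.26. The members' ratio over other neurons was 0.38 for neurofilament and perineuronal net genes and 0.01 for GABAergic and glycinergic markers. It was 0.29 and 0.23 as a mean over nuclei and 0.31 and 0.24 at 1000 UMIs. The cause was not tested, but both settings give each nucleus equal weight.

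The alternatives with the finer sets were added after seeing the data. With the shallow set alone, 361 genes were lower than in other neurons and 718 higher in HETs. List ratios over other neurons were −0.082 for neurofilament and net genes, 0.81 for GABAergic and glycinergic markers and 0.033 for sodium channels (0.25 for all members), and HET over WT ratios were −0.72 for ribosomal and −0.60 for respiratory genes. Signs turned for Col5a2 (−0.79), Mecomos (−0.68), Plscr5 (−0.48), Tex22 (−0.47), Rubcnl (−1.28) and Mecom (−1.88) over other neurons and for Poln (−0.027) between genotypes. With the deep set alone, 552 genes were higher and 1418 lower than in other neurons. The list ratios were 0.51, −0.34 and 0.31, and between genotypes −0.82, −0.54 and, for immediate early genes, −0.51. At equal weight of both sets, the ribosomal and respiratory ratios were −0.75 and −0.58. The WT to HET ratio of the share of nuclei, 2.72 of neuron.1, was 3.27 of all nuclei, 5.53 for the shallow set, 1.43 for the deep set and 2.44 for the cluster at resolution 0.7. Leaving out ribosomal genes from the total, nuclei under 2000 UMIs or the highest 5% of doublet scores changed no main value beyond these limits.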

Other observations

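Genes of energy metabolism and protein folding were also compared between genotypes within the members, where 15.8% of all genes were called lower and 3.06% higher in the HET library. Of 25 genes of the TCA cycle and pyruvate entry with at least 200 UMIs, 4 were called lower and 0 higher, and the median of the list was −0.22, beside −0.13 over all genes. Sdhb, a subunit of succinate dehydrogenase, was called lower, at 49.9 and 28.1 CPM in WT and HET members, while Sucla2, of succinyl-CoA synthetase, stood at 71.8 and 80.9 CPM. The summed log2 ratio was −0.27 (−0.31 to −0.24) over all members, −0.17 (−0.26 to −0.09) in the shallow set, −0.26 (−0.29 to −0.22) in the deep set and −0.24 (−0.26 to −0.22) in the other neuron.1 nuclei. Of 16 glycolysis genes 4 were called lower, and the sum was −0.28 (−0.32 to −0.23) over all members and −0.23 (−0.25 to −0.21) in the others. Of 13 chaperone and polyubiquitin genes 7 were called lower, against 4 in the other neuron.1 nuclei, where 8.79% of all genes were. The summed ratio of this list was −0.60 (−0.65 to −0.55) over all members and −0.44 (−0.47 to −0.42) in the others. Within the shallow and the deep set it was −0.41 (−0.51 to −0.31) and −0.37 (−0.42 to −0.31). The larger decrease over all members was thus not seen within the sets. Ubb, a polyubiquitin gene, was at 118 and 50.1 CPM, and Hsp90ab1, a cytosolic chaperone, at 165 and 83.5 CPM, both called. Hsph1, another chaperone, was at 24.2 and 35.6 CPM, within 1.5-fold.

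Calcium channels and calcium-binding proteins were set against the other neuron.1 nuclei, where 3.79% of all genes were called lower and 2.40% higher. Of 15 channel genes 3 were called lower in the members and 0 higher. Cacna1e, which encodes the R-type channel, was lowest, at 145 and 132 CPM against 287 and 297 CPM in WT and HET nuclei. Of 9 calcium-binding proteins 2 were called lower. Calb1, calbindin, was at 8.60 and 7.52 CPM against 14.1 and 18.2 CPM. Pvalb, parvalbumin, was at 24.6 and 17.6 CPM against 20.6 and 14.5 CPM, within 1.5-fold.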
